A study of Homo sapiens with 6 samples.

Results

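The numbered ZNF genes of human chromosome 19 are the largest group of zinc finger genes in the genome. They were taken from the deposited table as the rows placed on chromosome 19 whose symbol is ZNF followed by a number and at most 1 more letter, which gave 261 of 32862 genes. The choice used names and positions and no measured value, but it was made with earlier results of these data known. The 261 rows carry 257 different symbols, 13 of them have names ending in P that mark pseudogenes, and 246 list a protein-coding transcript. RNA came from SH-SY5Y, a human neuroblastoma cell line, in 6 untreated libraries made by poly(A) selection. Of these, 3 were from wild-type (WT) cells and 3 from cells with OTULIN, a deubiquitinase of linear ubiquitin chains, knocked out (KO) by CRISPR-Cas9. All 6 share the cell line, the culture medium and the batch number in the labels. Whether the KO cells were 1 clone or a pool, and whether replicates were separate cultures, is not given in the sources used here, so p-values measure how far these libraries spread, and that spread may be technical.

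Classical zinc finger proteins are built from repeated fingers, each of which folds around a zinc ion held by a pair of cysteines and a pair of histidines and reads a few bases of DNA. Many chromosome 19 members also start with a KRAB domain, which recruits the co-repressor TRIM28 (KAP1) and, through it, the histone H3 lysine 9 methyltransferase SETDB1 and heterochromatin proteins. KRAB zinc finger proteins are best known for silencing transposable elements, and their genes arose by tandem duplication, which left them in clusters along the chromosome.

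The repeated unit is shown for ZNF146, a protein made almost entirely of fingers and the third most abundant member in WT cells, and for ZNF208, the member with the most fingers. Each line is the coding sequence of 1 finger from its first cysteine to its last histidine, 63 bases, from GENCODE 29, and the capitals mark the codons of the cysteines and histidines. The ZNF146 fingers lie at residues 18 to 38, 46 to 66 and 74 to 94, and those of ZNF208 at residues 231 to 251 and 259 to 279.
ZNF146 finger 1: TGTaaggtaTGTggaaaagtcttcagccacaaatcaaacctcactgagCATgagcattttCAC
ZNF146 finger 2: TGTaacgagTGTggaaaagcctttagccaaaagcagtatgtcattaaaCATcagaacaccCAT
ZNF146 finger 3: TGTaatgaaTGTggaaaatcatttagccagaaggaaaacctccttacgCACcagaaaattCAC
ZNF208 finger 1: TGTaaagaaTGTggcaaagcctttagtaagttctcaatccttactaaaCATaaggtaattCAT
ZNF208 finger 2: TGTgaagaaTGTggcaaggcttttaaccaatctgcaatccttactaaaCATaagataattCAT
The cysteine and histidine codons stand at the same places in all 5 stretches, while the bases between them differ. Such likeness can let reads of 1 member be counted for another.

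The start regions of the 3 members with the highest WT level, and of ZNF534, the lowest member that has an entry (named after its values were seen), are shown because they frame the range of levels described next. Each line holds the 250 bases before the start that RefSeq gives, read 5′ to 3′ on the strand of the gene (GRCh38.p14), with every CG pair in capitals. The ZNF358 stretch is chr19:7515853-7516102 on the plus strand, that of ZNF428 chr19:43619630-43619879 on the minus strand, that of ZNF146 chr19:36214856-36215105 on the plus strand, and that of ZNF534 chr19:52428898-52429147 on the plus strand.
ZNF358: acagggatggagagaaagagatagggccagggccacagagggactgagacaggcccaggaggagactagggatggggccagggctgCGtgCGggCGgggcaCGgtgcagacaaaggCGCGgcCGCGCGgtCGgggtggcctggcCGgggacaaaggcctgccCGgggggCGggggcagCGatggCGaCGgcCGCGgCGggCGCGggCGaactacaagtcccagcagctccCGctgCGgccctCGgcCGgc
ZNF428: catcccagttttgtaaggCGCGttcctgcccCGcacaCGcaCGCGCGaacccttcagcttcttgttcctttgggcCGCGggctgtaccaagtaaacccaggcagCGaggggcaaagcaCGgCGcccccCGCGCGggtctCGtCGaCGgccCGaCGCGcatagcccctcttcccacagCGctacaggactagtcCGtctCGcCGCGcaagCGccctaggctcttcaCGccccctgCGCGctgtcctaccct
ZNF146: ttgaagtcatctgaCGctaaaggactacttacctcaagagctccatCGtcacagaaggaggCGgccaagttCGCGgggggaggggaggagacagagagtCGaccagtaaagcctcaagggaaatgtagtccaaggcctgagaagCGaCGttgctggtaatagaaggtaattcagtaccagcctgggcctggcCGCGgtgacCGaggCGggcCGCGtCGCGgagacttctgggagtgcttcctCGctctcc
ZNF534: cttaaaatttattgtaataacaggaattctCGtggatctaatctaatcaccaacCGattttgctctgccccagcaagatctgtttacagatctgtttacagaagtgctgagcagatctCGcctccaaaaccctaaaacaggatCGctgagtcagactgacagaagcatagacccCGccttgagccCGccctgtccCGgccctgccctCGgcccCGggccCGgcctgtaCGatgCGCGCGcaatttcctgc
The ZNF358 and ZNF146 stretches lie inside the gene's row in the deposited table, which begins further upstream than the RefSeq start. The stretches hold 26, 30, 17 and 14 CG pairs. ZNF534, at 0.00822 FPKM in WT cells, thus also starts in a stretch with many of them.

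In WT cells most members were expressed at a low level and very few at a high one. The level used here is FPKM, fragments per kilobase of transcript scaled to the mapped fragments of the library, which allows genes of different length to be compared. The median of the 261 members was 1.88 FPKM, with quartiles of 0.945 and 3.18 and a highest value of 39.1. A mean of at least 1 FPKM was reached by 191 members (73.2%), against 38.7% of all genes, 80.1% of the 281 numbered ZNF genes on other chromosomes and 42.0% of the 1765 other genes of chromosome 19. Only 6 members reached 10 FPKM, 26 lay from 5 to 10, 159 from 1 to 5, 60 from 0.1 to 1 and 10 under 0.1, and no member was at 0 in all WT libraries. The members thus stood mostly in a narrow band, with a median above that of all genes (0.320 FPKM) and of the rest of chromosome 19 (0.451), and below that of the ZNF genes elsewhere (3.13). The coefficient of variation over the WT libraries had a median of 9.51% for the 191 members at 1 FPKM or more and of 19.5% for those below.

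The 3 members at the top stood apart. ZNF358 (chr19:7515292-7521025) had 47.7, 36.2 and 33.4 FPKM in WT replicates 1 to 3 (39.1 ± 7.6, SD, n = 3). Its protein has 9 fingers, and the KRAB pattern described below was not found in it. ZNF428 (chr19:43607224-43619629), whose short protein has 1 finger, had 41.2, 35.8 and 34.7 FPKM (37.2 ± 3.5). ZNF146 (chr19:36214602-36238771) had 28.6, 32.7 and 34.5 FPKM (31.9 ± 3.0). The values of ZNF358 and ZNF428 overlapped, those of ZNF428 all lay above those of ZNF146 by a small margin, and all of ZNF146 lay well above the fourth member, ZNF787. Together these 3 genes made up 14.99% ± 1.3 of the summed FPKM of all 261 members.

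The next 7 could not be placed in a firm order. ZNF787 had 13.6, 12.01 and 11.1 FPKM (12.2 ± 1.3), ZNF121 10.4 ± 0.56, ZNF580 10.4 ± 1.6, ZNF581 9.94 ± 1.8, ZNF302 9.71 ± 0.54, ZNF865 9.25 ± 1.4 and ZNF266 8.64 ± 0.29 (SD, n = 3 each). Each of these overlapped with the gene ranked after it. Of the 10 highest members only ZNF302 and ZNF266 have the KRAB pattern described below. ZNF580 and ZNF581 lie on the same strand and their rows overlap (55635016 to 55643469 and 55635459 to 55645622), so their reads can be confused: 11.3% and 18.4% of their 50-base words also occur in another member.

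Cluster medians along the chromosome lay within a few-fold of each other, and single genes within clusters ranged widely. Ordered by start and divided wherever neighbours lay more than 500 kb apart, 247 members fell into 10 clusters of 5 or more genes, numbered here from the end of the short arm, and 14 lay scattered. The largest were cluster 8 (45 members, 51.57 to 53.58 Mb), cluster 10 (43 members, 57.19 to 58.48 Mb, at the end of the long arm) and cluster 4 (39 members, 19.67 to 24.13 Mb, spanning the region next to the centromere on the short arm). Median WT levels ran from 1.26 FPKM in cluster 3 (27 members, 11.48 to 12.64 Mb) to 3.75 FPKM in cluster 9 (18 members, 55.48 to 56.67 Mb). This 2.97-fold range became 6.52-fold when clusters were divided at gaps of 250 kb. The order was not firm between libraries. In WT replicates 1 to 3 the median was 4.54, 3.35 and 3.46 FPKM in cluster 9 and 3.22, 3.29 and 3.67 in cluster 2. Cluster 3, at 1.18, 1.39 and 1.31, was the lowest in no single WT library. Cluster 8 was lower in replicate 1 (1.13) and cluster 1 in replicates 2 and 3 (1.20 and 1.23). Within cluster 8 alone single genes ran from 0.00822 to 5.54 FPKM. Medians of groups in general range less than single values, so these ranges do not compare clusters with their members.

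The other cluster medians were 1.32 FPKM in cluster 1 (5 members, 2.82 to 2.94 Mb), 3.38 in cluster 2 (13 members, 8.51 to 9.79 Mb), 1.86 in cluster 4, 2.75 in cluster 5 (6 members, 34.54 to 34.96 Mb), 1.62 in cluster 6 (28 members, 36.18 to 37.82 Mb), 2.40 in cluster 7 (23 members, 43.53 to 44.50 Mb), 1.34 in cluster 8 and 1.94 in cluster 10. The scattered members had 2.35. In every cluster at least 66.7% of the members reached 1 FPKM. The leading gene was ZNF77 in cluster 1 (3.29 ± 0.36 FPKM), ZNF121 in cluster 2, ZNF700 in cluster 3 (6.89 ± 0.58), ZNF43 in cluster 4 (7.56 ± 0.55), ZNF302 in cluster 5, ZNF146 in cluster 6, ZNF428 in cluster 7, ZNF331 in cluster 8 (5.54 ± 0.60), ZNF787 in cluster 9 and ZNF134 in cluster 10 (5.30 ± 0.18). ZNF358 led the scattered members. Neighbours within a cluster were about as unlike each other as other pairs: the median absolute log2 difference of the WT FPKM was 0.72 over 237 neighbouring pairs, 0.73 over pairs of a cluster that were not neighbours, and 0.80 over pairs from different clusters. These pairs share genes and are given as a description.

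**Figure D1:**
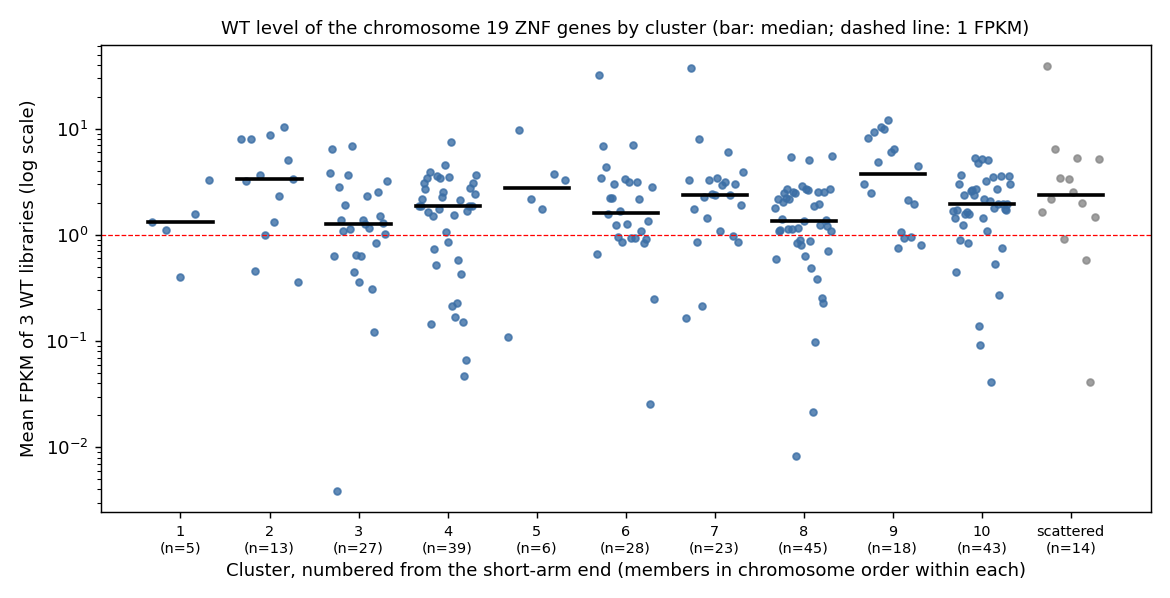
Mean FPKM of the 3 WT libraries (vertical axis, log scale) for each chromosome 19 ZNF gene, by cluster (horizontal axis, numbered from the short-arm end, members in chromosome order); black bars are cluster medians and the dashed line is 1 FPKM. The medians lie between 1.26 and 3.75 FPKM. Single genes within a cluster range more widely, as single values do beside medians, and ZNF358, ZNF428 and ZNF146 stand above 30 FPKM.

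Coding sequences were found for 246 members. A KRAB A box pattern was present in 198 and not found in 48. A fixed pattern can miss a domain that differs from it, so genes without the pattern may still have a KRAB domain. The number of fingers had a median of 12 and ran from 0 in ZNF738, whose coding sequence of 137 residues keeps the KRAB pattern alone, to 36 in ZNF208, with 1280 residues. Members without the KRAB pattern had higher levels at the upper end: 17 of 48 reached 5 FPKM against 13 of 198 with the pattern, and their medians were 3.04 and 1.87 FPKM. This is a description, without a test, since members are not replicates. Cluster 9 combines these features, with the KRAB pattern in only 5 of 16 coding members, while in the other 9 clusters the share was 76.9% to 100%. Its members also have G+C-rich transcripts (median 63.5%). Finger number itself went little with the level: the median WT FPKM was 3.56 in the 14 members with 0 to 5 fingers, 1.94 in 71 with 6 to 10, 1.84 in 104 with 11 to 15 and 2.20 in 57 with 16 or more. Spearman's rho between finger number and WT level was -0.11 across 246 genes, which share libraries and ancestry.

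Start regions were CpG-rich in most members. RefSeq held a start region for 216 of the 261. Over the whole 300-base window (250 bases before and 50 after the start), the ratio of observed to expected CG pairs was over 0.6 in 166 (76.9%), against 76.2% of the ZNF genes on other chromosomes, 56.0% of other genes on chromosome 19 and 48.0% of all windows of that length in the table. The letters searched were CG, which read the same on both strands. The ratio did not separate members by level: the median WT FPKM was 1.96 above 0.6 and 2.04 at or below it, and rho was 0.01 over 216 genes.

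WT replicate 1 differed from the other WT libraries in a way that went with base composition. Among members with a coding sequence and at least 30 counts over the WT libraries, it was compared by transcript composition. Of 27 whose transcript has over 55% G+C, it held the highest of the 3 values in 20, with a median difference of 0.23 from the mean of the other two on the log2(FPKM + 0.1) scale. Of 216 with 55% or less, it held the lowest value in 128, with a median of -0.13. ZNF358, ZNF787, ZNF580, ZNF581 and ZNF865 all had their highest value there. ZNF614, a KRAB member in cluster 8 chosen here after its values were seen, had 64 counts in WT replicate 1 but 1145 and 1174 in replicates 2 and 3. Its coefficient of variation of 79.8% was the highest among members at 1 FPKM or more.

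In the KO libraries almost none of these genes was detected. The KO libraries held 809603, 862932 and 725827 counts against 61772795 to 64352333 in WT, a 78.5-fold difference in mean depth, and most genes were absent from them: 88.9% of all genes were at 0 in every KO library. OTULIN itself (chromosome 5) had 0 counts in all KO libraries and 1682, 2101 and 2155 in WT, where 75.6 counts would have been seen in the KO libraries together at its WT share. Because most genes were absent in the KO libraries, this absence does not check the labels by itself. Small KO counts were also not spread as single reads would be: 55 to 67 genes per KO library had 1 count and 273 to 372 had 4, so intervals from counting error alone are too narrow there.

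The adrenergic and mesenchymal marker lists moved with the groups too, while the values of the other marker lists overlapped. The 12 adrenergic neuroblastoma genes, which mark the identity of SH-SY5Y, summed to 6479 to 7396 CPM (counts scaled to the library total) in WT and to 674 to 745 in KO, and CHGA, CHGB, DBH, DDC, GATA3, PHOX2A and TH were among those at 0 in every KO library. Of 4 mesenchymal genes in the table, CD44 was at 0 in KO, and the list summed to 289 to 294 CPM in WT and 16.5 to 56.8 in KO. Epithelial genes (5 of 5 in the table, KRT8 at 0 in KO) were low in both, at 7.43 to 23.1 CPM in WT and 4.94 to 28.97 in KO. Blood and microglia genes (3 of 5 in the table, CD68 among those at 0 in KO) ran from 0 to 4.64 CPM in KO and from 0.0466 to 0.194 in WT. Glia and endothelium genes (4 of 6 in the table, GFAP and VWF at 0 in KO) ran from 0 to 4.13 CPM in KO and from 0 to 1.18 in WT. At KO depth a few counts give such values. The part of depth and of these marker differences in the values below was not tested, and in bulk RNA fewer cells with a transcript and less of it per cell cannot be told apart.

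The 261 members together had 4, 9 and 3 counts in KO replicates 1 to 3, against 246746, 266810 and 262001 in WT. That is 0.000650% ± 0.000343 of the counts of a KO library and 0.412% ± 0.0140 of those of a WT library (SD, n = 3 each), a 633-fold lower share. Every KO library lay below every WT library, with an exact two-sided permutation p of 0.1, the smallest that 3 against 3 libraries can give. Between 257 and 259 members had a count in each WT library, and 1, 3 and 1 had one in KO replicates 1 to 3 (exact permutation p = 0.1).

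The same measure was taken in related genes. ZNF genes on other chromosomes held 0.521% ± 0.068 of KO counts and 0.947% ± 0.024 of WT counts, a 1.82-fold difference. Their KO counts came from few genes: 250 of 281 were at 0, and ZNF207, ZNF706, ZNF326, ZNF281 and ZNF148, named after their values were seen, gave 10149 of 12411 counts (81.8%), each 6.49 to 13.98 times the count expected from its WT share. The other genes of chromosome 19 held 0.655% ± 0.097 and 6.03% ± 0.35, a 9.20-fold difference. For every 100 counts in ZNF genes elsewhere, the chromosome 19 members had 43.5 ± 0.45 in WT and 0.132 ± 0.086 in KO libraries, a 330-fold difference that rests on the same few genes (exact two-sided permutation p = 0.1, the smallest possible). Without KO replicate 2 it was 528-fold. Against the other genes of chromosome 19 the members' ratio was 65.2-fold lower in KO (6.85 ± 0.61 and 0.105 ± 0.069 per 100 counts, exact permutation p = 0.1). The gap between KO and WT was thus wider in the members than in both reference groups, at the smallest p the design allows. Chromosome 19 as a whole had the lowest KO share relative to WT of the autosomes and X, 9.82-fold lower, ahead of chromosome 22 at 2.66-fold. Outside these, the mitochondrial genes went from 8.52% of WT counts to 0.00423% of KO counts, a 2014-fold lower share, and chromosome 21 went from 1.31% to 29.7%. These shares also differed between the groups, that of chromosome 21 in the opposite direction to the members. Library totals that leave out 4 ribosomal RNA loci gave the members a 435-fold lower share in place of 633-fold. Those loci thus held more of the KO than of the WT counts, which bears on every share given here. The part of these differences in the members' values was not tested.

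**Figure D2:**
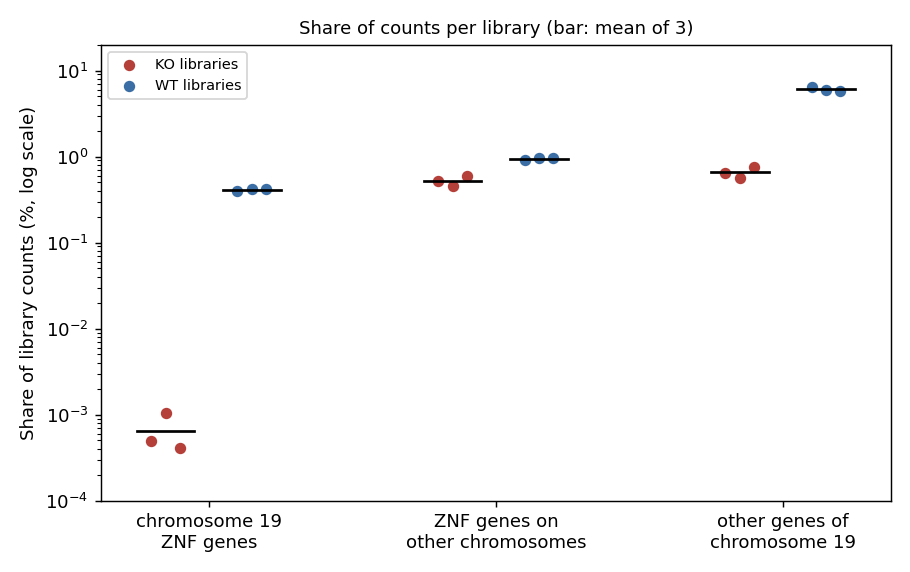
Share of a library's counts (vertical axis, percent, log scale) held by the chromosome 19 ZNF genes, the ZNF genes on other chromosomes and the other genes of chromosome 19; points are libraries (red KO, blue WT) and bars are means of 3. The members lie near 0.412% in WT and at 0.000650% on average in KO, a far wider gap than in both other groups.

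The small KO depth limits each gene by a different amount, which an expected count makes plain. For each gene, its mean WT share times the summed KO depth of 2398362 counts gives what the KO libraries together would hold at that share. Summed over the members this was 9876 counts, and 16 were seen. At 0 in all KO libraries were 256 of 261 members (98.1%, beside 88.9% of all genes). An expected count of at least 3 was reached by 234 members, of which 229 were at 0. Among the 122 members with 30 or more expected counts, 118 (96.7%) were at 0, against 84.6% of 182 ZNF genes elsewhere, 74.7% of 537 other genes of chromosome 19 and 72.2% of 9806 genes overall. No member had a count in more than 1 KO library, while 20 ZNF genes elsewhere did. Rows differ in sequence and library behaviour, so these shares are descriptions and carry no test.

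**Figure D3:**
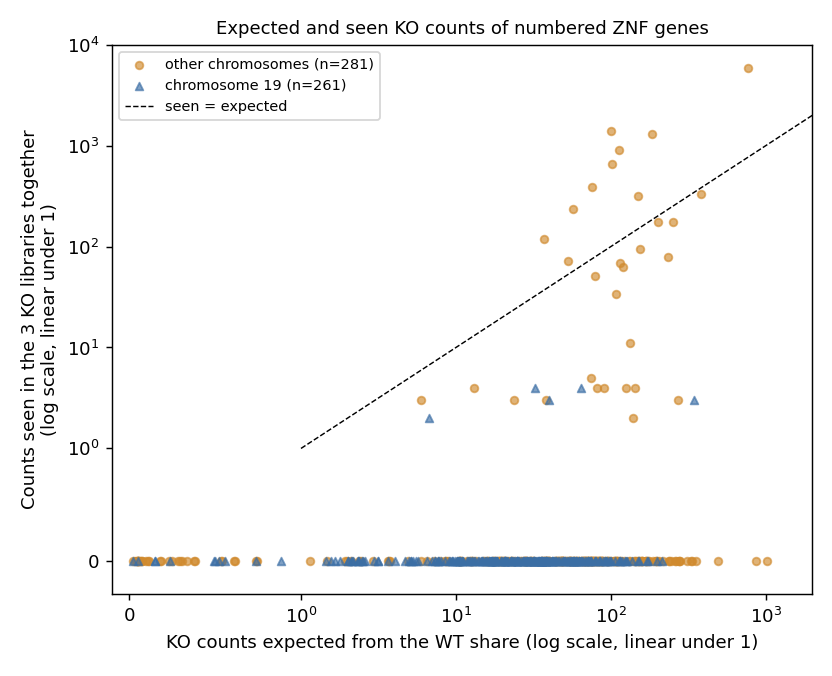
Counts expected in the 3 KO libraries from the WT share (horizontal axis) and counts seen there (vertical axis; both log scale, linear under 1) for the 261 chromosome 19 ZNF genes (blue triangles) and the 281 on other chromosomes (orange circles). No member reaches 5 counts, while part of the genes on other chromosomes lie on or above the dashed line of equality.

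**Figure D4:**
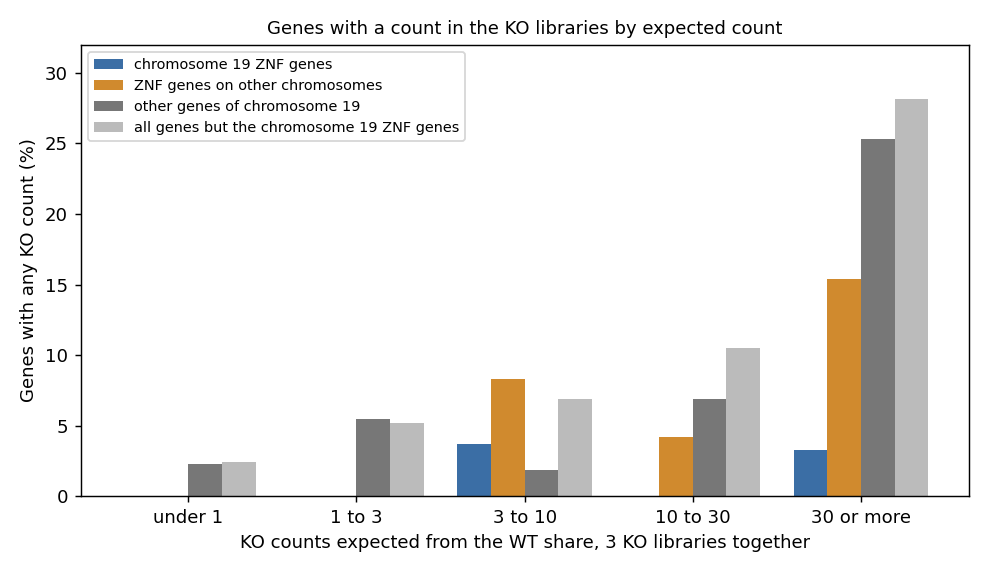
Percent of genes with any count in the 3 KO libraries (vertical axis) by expected KO count (horizontal axis) for the chromosome 19 ZNF genes, ZNF genes on other chromosomes, other genes of chromosome 19 and all genes but the members. At 30 or more expected counts, 3.28% of the members had a count, against 15.4% of ZNF genes elsewhere and 25.3% of other genes of chromosome 19.

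The 5 members with any KO count were each seen in a single library. ZNF146 had 0, 3 and 0 counts in KO replicates 1 to 3 against 8034, 9506 and 9640 in WT, where 346 were expected. Its pooled ratio of WT to KO was 115, with a 95% counting interval of 39.5 to 559. ZNF574 (chr19:42068477-42081552), with 18 fingers and no KRAB pattern, had 4, 0 and 0 counts against 1980, 1502 and 1569, a ratio of 16.1 (6.29 to 59.1). ZNF653 (chr19:11483427-11505839), with 5 fingers and no KRAB pattern, had 0, 4 and 0 against 956, 787 and 780, a ratio of 8.04 (3.14 to 29.5). In all of these the KO value was far below WT, and leaving out the 1 library with a count put the gene at 0.

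ZNF761 (chr19:53431984-53461862), a KRAB member with 17 fingers, had 0, 0 and 3 counts in KO against 1059, 1082 and 984 in WT, a ratio of 13.3 (4.54 to 64.3). ZNF208 (chr19:21932958-22010949) had 0, 2 and 0 against 148, 172 and 207, a ratio of 3.36 (0.930 to 27.7), so at this depth no difference could be seen for it from counting error alone. Its WT level was 0.213 ± 0.038 FPKM and it was not tested. The edgeR quasi-likelihood test put ZNF146 at a log2 change of -7.24 (SE 0.44, Benjamini-Hochberg adjusted p = 1.27e-05), ZNF574 at -4.40 (SE 0.63, adjusted p = 0.00041), ZNF653 at -3.40 (SE 0.70, adjusted p = 0.0027) and ZNF761 at -4.11 (SE 0.60, adjusted p = 0.00048).

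Members at 0 in all KO libraries were given a lower bound, taking 3 counts in the KO group as the floor (1.25 CPM). By expected KO count the first were ZNF358 (6736, 5288 and 4687 counts in WT, 213 expected in KO), at least 71.0-fold lower, ZNF121 (5434, 5102 and 4967 in WT), at least 65.8-fold lower, and ZNF536 (4350, 4756 and 4542 in WT), at least 57.9-fold lower. ZNF536, known as a regulator of neuronal differentiation, had 6.44 ± 0.19 FPKM in WT cells. The bound was 57.0-fold for ZNF43, 50.4-fold for ZNF428, 42.7-fold for ZNF302, 42.0-fold for the imprinted gene ZNF331, 41.0-fold for ZNF266, 39.3-fold for ZNF787, 38.0-fold for ZNF738 and 30.3-fold for ZNF865. It was 23.8-fold for ZNF134, 23.7-fold for ZNF580, 19.97-fold for ZNF700, 14.2-fold for ZNF581 and 7.01-fold for ZNF77. For each of these 16 genes every KO library was at 0 and every WT library held 517 counts or more. The sizes follow the WT counts and do not rank the true changes.

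ZNF91 and ZNF93, named here after their values were seen, repress SVA and L1 retrotransposons. ZNF91 had 1767, 1963 and 2082 WT counts, no KO count and a bound of 24.7-fold, and ZNF93 had 936, 1074 and 1124 WT counts, no KO count and a bound of 13.3-fold. ZNF274, which binds the 3′ ends of ZNF genes and recruits SETDB1 there and was also chosen afterwards, had 1109, 1129 and 1123 in WT and 0 in KO, but at a mean of 1.96 FPKM in WT it did not pass the filter of the test.

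The test took genes averaging 1 FPKM or more across the 6 libraries, which included 123 members and left out 138, of which 68 had a WT mean of at least 1 FPKM. The 123 are exactly the members with a WT mean of 2 FPKM or more, so they entered through their WT values, which fixed the direction, and the count below is no support for a change of the members as a group. Of the 123, edgeR called 122 lower in KO (Benjamini-Hochberg adjusted p under 0.05) and 0 higher, while 88.0% of all 10820 tested genes were called lower, 7.63% higher and 95.6% in either direction. At an unadjusted p under 0.05 no member was higher either, and DESeq2 called 123 lower and 0 higher. The member not called was ZNF614, with an adjusted p of 0.155. With no filter, 232 of 261 were called lower and 0 higher, beside 42.6% of all genes called lower and 2.46% higher. The share called lower was thus 99.2% of members and 88.0% of all genes with the filter, and 88.9% and 42.6% with none. Members also reached 1 FPKM in WT more often than all genes (73.2% and 38.7%), and the part of this in the unfiltered shares was not tested. The median log2 change with the filter (-12.39 in members, -12.42 in all tested genes) depends on the prior count used for zeros. In 255 of 261 members every KO library was below every WT library in CPM, beside 66.3% of all genes.

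Among ZNF genes the KRAB pattern went with the counts seen in KO. Members with the pattern had 6889 expected and 5 seen KO counts, with a count in 2 of 198 genes. Members without it had 2738 expected and 11 seen, in 3 of 48 genes. On other chromosomes, 94 genes with the pattern had 6886 expected and 69 seen, all from ZNF282 on chromosome 7 (26, 18 and 25 counts), chosen here after its values were seen. The 159 genes without it had 15378 expected and 12342 seen, in 30 genes, of which ZNF207, a spindle assembly factor on chromosome 17 chosen in the same way, gave 5886. Genes with the pattern were thus nearly absent from KO in both groups apart from ZNF282, and so were those without it on chromosome 19. On other chromosomes only 18.9% of the genes without it had any KO count. The sum there rests on few genes: ZNF207, ZNF706, ZNF326, ZNF281 and ZNF148, all without the pattern, gave 10149 of the 12342 counts. Each of these 5 had 6.49 to 13.98 times its expected count. ZNF genes without the pattern also differ from those with it in level and G+C content, and the difference has no test.

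**Figure D5:**
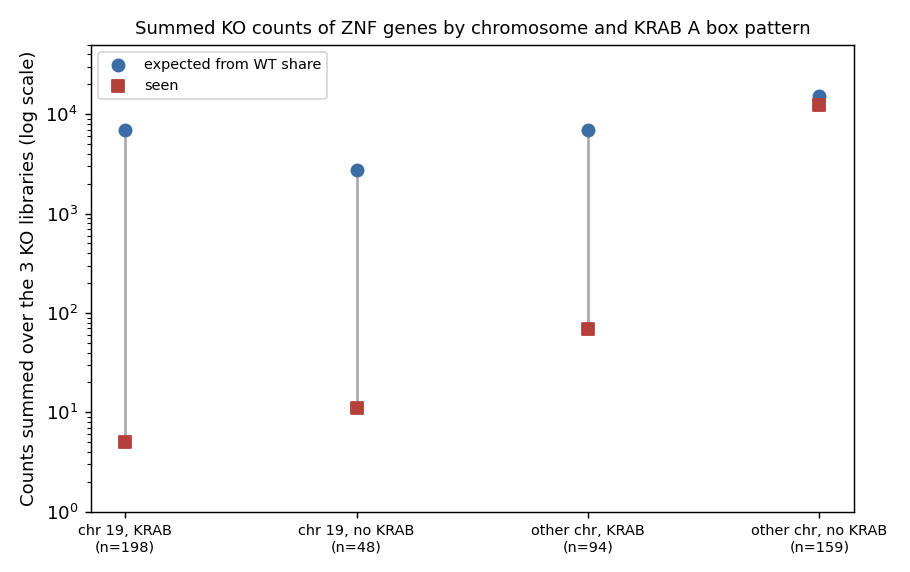
Counts summed over the 3 KO libraries (vertical axis, log scale) in ZNF genes with and without a KRAB A box pattern on chromosome 19 and on other chromosomes; blue circles are counts expected from the WT share and red squares are counts seen. Expected and seen sums lie close together only in the genes without the pattern on other chromosomes (15378 and 12342). There 5 genes gave 10149 of the counts seen, and 18.9% of the genes had any. The label "no KRAB" marks genes in which the pattern was not found.

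Several features limit single members. Another row of the table overlapped 178 members (68.2%), 127 of them on the opposite strand, and the strand setting of the counting is not given in the sources used here, so those reads cannot be told apart. In 22 of 255 members over 10% of the 50-base words of the transcripts also occur in another member. The highest were ZNF320 (69.6%) and ZNF468 (55.8%), which share words mostly with each other. ZNF320 and ZNF468 are named for this reason alone, and their levels of 5.06 ± 0.29 and 2.68 ± 0.42 FPKM are uncertain, but both were at 0 in every KO library.

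Of a list of 38 genes that act with KRAB proteins in repression and heterochromatin, 37 were in the table and 36 were tested. edgeR called 32 lower and 3 higher in KO (88.0% lower and 7.63% higher among all tested genes), shares close to those of all genes. At 0 in every KO library were 24 of the 37, a smaller share than among all genes (88.9%) or the tested genes (71.3%). The median log2 change was -13.42, against -12.42 over all tested genes. Together the list held 0.273% ± 0.036 of KO counts and 0.683% ± 0.0092 of WT counts (exact two-sided permutation p = 0.1 for the share, the smallest possible). Its KO counts were 16382 expected and 6490 seen, a 2.52-fold difference. Of those seen, 3308 came from RBBP7 alone, where 356 were expected, so the difference rests largely on 1 gene, named after its values were seen.

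TRIM28, the co-repressor that KRAB domains bind, itself lies on chromosome 19 (chr19:58544064-58550715), past the last ZNF cluster. It had 0, 0 and 8 counts in KO and 43350, 40250 and 37312 in WT, 175-fold lower in mean CPM (edgeR log2 change -7.97, SE 0.67, adjusted p = 3.1e-05). SETDB1 had 0, 0 and 4 counts against 6657, 6975 and 6862, 59.2-fold lower (log2 change -6.41, SE 0.43, edgeR adjusted p = 1.5e-05). Both had counts in KO replicate 3 alone, and without it both were at 0. The heterochromatin protein gene CBX3 (at least 462-fold lower), the histone chaperone RBBP4 (at least 300-fold), the maintenance DNA methyltransferase DNMT1 (at least 296-fold) and the deacetylase HDAC2 (at least 286-fold) were at 0 in all KO libraries.

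The 3 called higher, chosen here after their values were seen, had counts in every KO library. RBBP7, the X-linked paralogue of RBBP4, had 1131, 1047 and 1130 counts in KO and 8922, 9848 and 9216 in WT, 9.35-fold higher in CPM. CHD3, a nucleosome remodeller, had 275, 222 and 240 against 8770, 8358 and 7741 (2.34-fold higher), and HELLS, another remodeller, had 209, 236 and 232 against 8526, 8458 and 7939 (2.14-fold higher). With median-ratio scaling only 1 of the 3 was called higher. MTA1, with 97, 0 and 0 counts in KO, was the tested gene not called (edgeR adjusted p = 0.053).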

How the data were processed

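Poly(A) RNA of 6 SH-SY5Y libraries was analysed from 1 table holding, per gene and library, whole-number counts and FPKM values, both made and deposited by the authors. Per the submitters' processing notes, the build was hg38 and the tools listed, without roles, include StringTie 1.3.4d, HISAT2 2.0.4 and cutadapt 1.9. Neither the annotation release nor the strand setting is given in the sources used here. Groups follow the genotype that each sample title gives. The members and lists were chosen with earlier results of these data known.

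CPM and shares use each library's total counts. edgeR 4.0.16 (glmQLFit, glmQLFTest, TMM factors, R 4.3.3) was fitted to all genes averaging 1 FPKM or more, with genotype as the only term and Benjamini-Hochberg adjustment at 0.05. SE is the absolute log2 change over the root of F. Shares were compared with exact two-sided permutation tests. Bounds take 3 counts in the KO group as the floor. Pooled ratios carry exact 95% intervals. Both cover counting error alone, as the sources name no molecular identifiers. Replicate pairs differed by a chi-square of 15.5 to 41.7 per degree of freedom, so each library was counted.

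Fingers and the KRAB A box pattern were searched in translated coding sequences of GENCODE 29, because no RefSeq protein table was used here. Genes were named by rule: the 10 highest members in WT, the highest per cluster, those with most KO counts, the 3 with the highest expected count among members at 0, the members with most and fewest fingers, TRIM28, SETDB1 and the 4 called co-repressor genes of largest log2 change, and OTULIN. The text marks those chosen afterwards. Some single marker genes are not reported here. The alternatives tried were a filter at 5 FPKM, none at all, median-ratio or total-count scaling, DESeq2 1.42.0, limma 3.58.1 on log2(FPKM + 1) and log2(FPKM + 0.1), a replicate block, other cluster gaps and levels, and leaving out each library. Other library totals and the ratio of members to other ZNF genes were added after the data were seen. Python 3.11.15, numpy 2.4.6, scipy 1.17.1, pandas 2.3.3 and matplotlib 3.10.9 were used.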

Additional observations from a re-analysis of the deposited data

How the results depend on the processing

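No member was called higher in KO under any alternative run. In the filtered runs the members tested entered through their WT values, which fixed the direction. All 261 had 16 KO counts together, so a higher call was hardly possible with no filter either. The unchanged direction is therefore no support for a change of the members as a group. The count of members called lower (122 of 123 tested) was 122 or 123 with DESeq2, limma at both pseudocounts, median-ratio or total-count scaling and without each library in turn, 232 of 261 with no filter and 6 of 6 tested with a mean of at least 5 FPKM, where few members are left. With the replicate number as a block, edgeR called 0 members (20 at an unadjusted p under 0.05, adjusted p 0.064 to 0.128) and 741 of all 10820 genes. Whether the numbers pair the samples could not be told. Same-numbered libraries deviated together by r of 0.002 to 0.037, and not every library correlated best with its own number. But 71.3% of the tested genes were at 0 in all KO libraries, so r near 0 can arise with or without pairing. The block also left 4 co-repressor genes called, 3 lower and 1 higher. A mean of at least 5 FPKM left 23 of that list called, 20 of them lower. Median-ratio scaling left 1 of its 3 higher calls. Of 266 alternatives for 20 named members, 246 kept direction and side of the threshold, 20 kept direction only, all under the block, and 0 reversed. The members' expected over seen KO counts were 617, 1193 with median-ratio library sizes and 440 with totals that leave out 4 ribosomal RNA loci. Their ratio to other ZNF genes was 330-fold, and 268 to 528-fold without each KO library. The members' share was 536 to 908-fold lower without each KO library and 435-fold lower with those reduced totals. At 2 FPKM or more there were 123 members in place of 191. With a 250 kb gap the range of cluster medians was 6.52-fold in place of 2.97-fold. The cause of these changes was not tested. KO depth leaves 27 members with under 3 expected counts, for which absence says nothing.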
